A study of Mus musculus with 3 samples.

Results

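The complement genes described here were 9 listed symbols of the 32285 genes in each count matrix. They were C1qa, C1qb and C1qc, the chains of the recognition molecule C1q; C1ra and C1s1, the proteases bound to it; C3 and C4b, the components that become attached to a target; Cfb, the protease of the alternative pathway; and Serping1, the C1 inhibitor. All 9 were found by symbol in all sections. They were measured on 3 heart sections of young adult C57BL/6 mice, 1 for each condition, by spatial transcriptomics on Visium slides, in which a frozen tissue section releases its polyadenylated RNA onto a grid of barcoded capture spots. The sham mouse received vehicle (aqueous sodium carboxymethyl cellulose) by gavage for 7 days and then an operation in which the needle was passed without ligation. The I/R mouse received the same vehicle for 7 days, then ligation of the left anterior descending (LAD) coronary artery for 30 min and reperfusion for 24 h. The SBP mouse received Shexiang Baoxin Pill (labelled MUSKARDIA) for 7 days and the same ligation and reperfusion. Which part of each heart was cut is not given in the sources used here. Mouse, section, slide position and condition cannot be told apart, and spots of a section are not replicates. No test between conditions was therefore possible, and every interval below is a 95% interval that covers counting error only.

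Complement is a cascade of plasma and tissue proteins that marks cells and debris for removal. In the classical pathway C1q, which is made mainly by macrophages, binds a target such as antibody or dying cells and activates the C1r and C1s proteases, which cleave C4 and C2 into the enzyme that cleaves C3. In the alternative pathway factor B joins cleaved C3 to make more of that enzyme. Serping1 inactivates C1r and C1s, and fibroblasts are among the cells outside the liver that make C3, C4 and C1 inhibitor. In the heart, reperfusion after a coronary occlusion exposes injured myocytes to complement, and the pathway has long been studied as a source of reperfusion damage.

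The C1q chain genes lie side by side on the minus strand of chromosome 4 (GRCm38, the build named in the submitters' notes as mm10), each with up to 3 exons, within 18675 bases from position 136880129 to 136898803. C1ra (chr6:124512405-124523443, plus strand) and C1s1 (chr6:124530345-124542359, minus strand) are neighbours transcribed toward each other. C4b (chr17:34728380-34743882) and Cfb (chr17:34856374-34862518) lie on the minus strand of chromosome 17, C3 lies on the same chromosome at chr17:57203970-57228136, and Serping1 lies at chr2:84765387-84775444. All 9 were annotated as protein coding in GENCODE M21. The RefSeq promoter table (GRCm38.p6) held an entry for 5 of the 9 genes. The 250 bases before the start site are shown for C1qb, which was higher in the I/R than in the sham section below. They are also shown for C3 and C1s1, which were lower there but went opposite ways in SBP over I/R. Capitals mark the PU.1 core GAGGAA in C1qb and the C/EBP motif TTGCNNAA in the other promoters, on either strand. PU.1 is a transcription factor of myeloid cells, and C/EBP factors act on acute phase genes.
C1qb (chr4:136886201-136886450, minus strand): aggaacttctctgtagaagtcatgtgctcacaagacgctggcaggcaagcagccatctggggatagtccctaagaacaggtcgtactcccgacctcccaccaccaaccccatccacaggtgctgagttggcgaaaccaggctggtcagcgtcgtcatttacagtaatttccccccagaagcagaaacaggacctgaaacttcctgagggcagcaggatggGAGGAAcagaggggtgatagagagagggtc
C3 (chr17:57228137-57228386, minus strand): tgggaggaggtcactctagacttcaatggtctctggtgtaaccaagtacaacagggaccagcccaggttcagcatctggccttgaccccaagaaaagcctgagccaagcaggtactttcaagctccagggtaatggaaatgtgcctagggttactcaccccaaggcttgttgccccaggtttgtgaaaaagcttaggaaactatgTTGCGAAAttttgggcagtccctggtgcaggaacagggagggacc
C1s1 (chr6:124542360-124542609, minus strand): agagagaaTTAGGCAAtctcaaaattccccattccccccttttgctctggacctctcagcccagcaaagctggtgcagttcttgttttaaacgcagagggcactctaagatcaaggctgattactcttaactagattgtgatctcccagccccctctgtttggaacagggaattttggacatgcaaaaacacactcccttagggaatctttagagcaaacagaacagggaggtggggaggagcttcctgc
The PU.1 core began 30 bases before the C1qb start and also occurred in the C1qc window, 193 bases before its start, and 23.3% of the 32851 promoters in the table held it. The C/EBP motif began 45 bases before the C3 start and 242 bases before the C1s1 start, and was held by 9.56% of all promoters. The NF-kB motif (3 G, 5 free bases and 2 C) occurred in the C1qb, C1qc and C3 windows, but 45.8% of all promoters held it. Neither the GAS motif TTCNNNGAA nor the core of the interferon-stimulated response element (ISRE) occurred in the 5 windows, against 7.02% and 2.98% of all promoters. These matches describe letters in a window and are not binding sites, and their part in the levels was not tested.

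With a floor of 200 detected genes a spot, 2234 sham, 2082 I/R and 1960 SBP spots remained, with 21631280 to 30238530 unique molecular identifiers (UMIs, each 1 captured transcript) a section and a median of 10645 to 14672 UMIs a spot. Of the heart's own cells, cardiomyocyte markers summed to 20241 counts in each 1000000 UMIs (CPM) in sham, 15946 in the I/R and 17470 in the SBP section, so that heart muscle was present in each. Because a spot covers several cells, fewer cells of a type and less RNA per cell cannot be told apart in any value below. Where spots were compared at equal depth, each was drawn down at random to 6500 UMIs, which left 2102 sham, 1880 I/R and 1747 SBP spots and left out 132, 202 and 213 shallower spots. The sections shared 1093 spot barcodes of 3035, since Visium slides carry a common set.

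**Figure D1:**
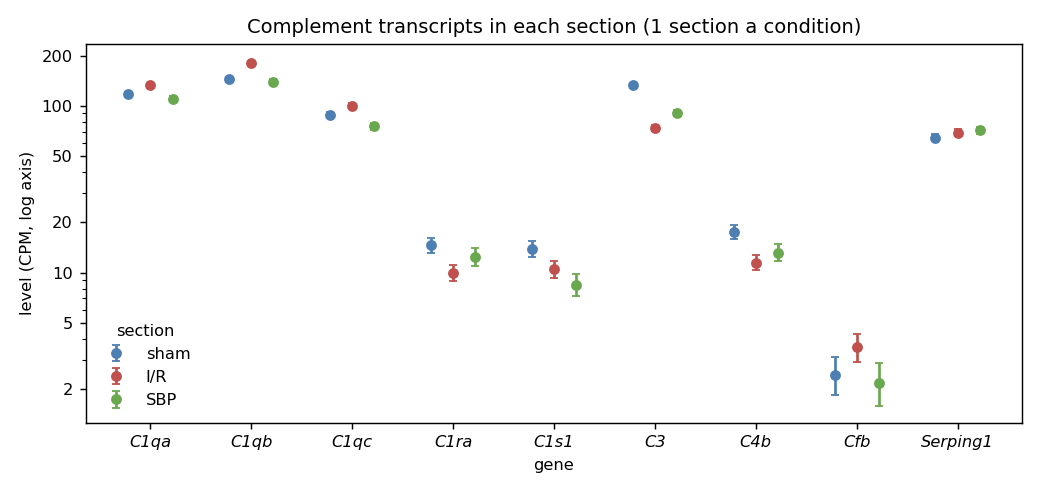
Level of each of the 9 genes (CPM, log axis) in the sham, I/R and SBP section; points are section totals and bars are 95% Poisson intervals, often smaller than the point. C3 was highest in sham at 133 CPM and lowest in I/R at 73.9 CPM, while each C1q chain was highest in I/R in CPM, an order of I/R and sham that C1qa and C1qc lost under TMM scaling.

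The complement genes did not move as 1 group. In CPM, the C1q chains, Cfb and Serping1 were higher in the I/R than in the sham section (C1qa, C1qc and Serping1 turned lower under TMM scaling) and C1ra, C1s1, C3 and C4b were lower. No member reached a 2-fold difference, a size that 8.9% of the 12231 genes with at least 50 UMIs reached in either direction. The counting interval lay above 0 for 5 members (47.8% of all tested genes) and below 0 for 4 members (13.4% of all tested genes). In SBP over I/R no member reached 2-fold (4.87% of 12151 genes). There the interval lay above 0 for 2 members, C1ra and C3 (11.2% of all genes), and below 0 for 5, the C1q chains, C1s1 and Cfb (39% of all genes). In SBP over sham again no member reached 2-fold (2.21% of 11768 genes). There the interval lay above 0 for Serping1 alone (24.8% of all genes) and below 0 for 6 members (11% of all genes), with C1qb and Cfb undecided. The median log2 ratio of the 9 members was 0.10 for I/R over sham against 0.24 over all genes tested, -0.28 for SBP over I/R against -0.17, and -0.22 for SBP over sham against 0.08. All I/R over sham ratios carry a common offset. TMM scaling, which sets the bulk of genes to no difference, lowered every one of them by 0.24, which put C1qa at -0.05, C1qc at -0.05, Serping1 at -0.13 and the median of the members at -0.13. The directions of C1qa, C1qc, Serping1 and the median in that comparison therefore depend on the scaling (and that of Serping1 and the median also on the mitochondrial genes), whereas those of C1qb, Cfb, C1ra, C1s1, C3 and C4b did not change. The Cfb ratio fell to 0.32 under TMM scaling, and its lower limit of 0.09 in CPM lay above 0 by less than the shift. TMM scaling raised the SBP over I/R ratios by 0.16, which turned the sign of no member. The upper limit of C1s1 and the lower limits of C4b and Serping1 lay below 0 by less than this shift. TMM scaling lowered the SBP over sham ratios by 0.08. There the lower limit of Serping1, 0.04, and the upper limit of C1qb, 0.03, lay above 0 by less than that.

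**Figure D2:**
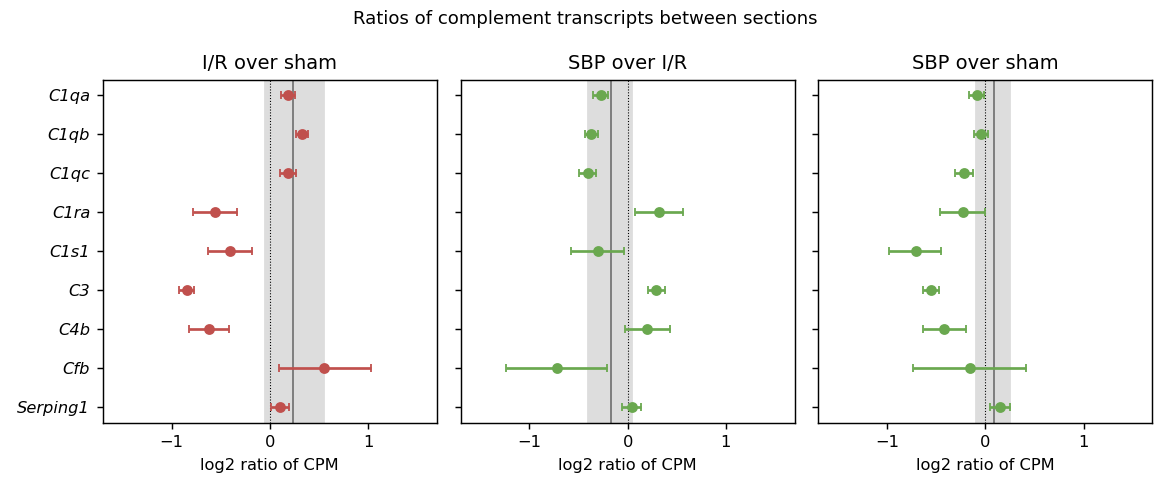
Log2 ratio of CPM of each gene for the 3 comparisons of sections, with 95% counting intervals; the grey line is the median and the grey band the middle 50% of all genes with at least 50 UMIs in both sections together. In I/R over sham C1ra, C1s1, C3 and C4b lie left of the band, and the C1q chains lie inside it.

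C1q, the recognition molecule, was measured by the sum of its chains at 349 CPM (342 to 356) in sham, 414 CPM (406 to 421) in the I/R and 325 CPM (318 to 333) in the SBP section. In CPM, C1q was thus highest in the I/R and lowest in the SBP section, and the 3 intervals did not overlap. The I/R over sham log2 ratio of 0.24 (0.21 to 0.28) was at the 50.4th percentile of all genes and the SBP over I/R ratio of -0.35 (-0.39 to -0.30) was at the 30th percentile. TMM scaling took these ratios to 0.01 and -0.19, and equal weight for each spot took them to 0.46 and -0.51. C1qa was read at 117 CPM in sham, 133 CPM in the I/R and 110 CPM in the SBP section. C1qb was read at 144, 180 and 140 CPM in the same order, and its sham and SBP levels overlapped in their intervals. C1qc was read at 87.7, 99.9 and 75.4 CPM, and was the chain with the lowest SBP over sham ratio, -0.22 (-0.31 to -0.13). The proportions of the chains to one another moved by at most a few percent. C1qb made up 41.2% of the C1q UMIs in sham, 43.6% in the I/R and 42.9% in the SBP section, and C1qc 25.1%, 24.2% and 23.2%. The C1qb share in sham (40.2 to 42.3) lay just below that in I/R (42.7 to 44.5). Together the C1q chains held 58.7% of the UMIs of all 9 members in sham, 69.9% in the I/R and 62.2% in the SBP section.

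How C1q was spread over spots also differed between sections. At equal depth 78.5% of sham spots held a C1q UMI (76.7 to 80.3), 75.4% of I/R spots (73.4 to 77.3) and 74.8% of SBP spots (72.65 to 76.8). The sham and SBP intervals overlapped only from 76.73 to 76.78, and overlap of separate intervals does not compare the shares. Averaged over all possible draws the shares were 78.3%, 76.2% and 74.5%. All 3 chains were read in 13.7% of sham spots (12.3 to 15.2), 18.4% of I/R spots (16.6 to 20.2) and 11.7% of SBP spots (10.3 to 13.3). The product of the shares of the single chains, which depends on their level, was 8.79%, 9.56% and 6.66%. The variance of C1q over spots was 2.69 times its mean in sham, 4.59 times in I/R and 2.71 times in SBP. The 10% of spots with most C1q held 34.7%, 41.1% and 36.6% of its UMIs. I/R thus stood above both other sections in the share with all chains, the variance and the top 10% of spots. SBP stood nearer to sham than to I/R in the variance and the top 10% of spots. The share with all chains and the variance relative to the mean also depend on the C1q level, which was highest in I/R in CPM.

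C1ra and C1s1, the proteases of the C1 complex, were low, and in CPM their SBP over I/R ratios had opposite signs. C1ra had 367 UMIs in sham (14.6 CPM), 301 in the I/R (9.95 CPM) and 269 in the SBP section (12.4 CPM). C1s1 had 348, 316 and 183 UMIs (13.9, 10.5 and 8.46 CPM). Both had less in I/R, with a log2 ratio over sham of -0.55 (-0.78 to -0.33) for C1ra and -0.41 (-0.63 to -0.18) for C1s1. In SBP over I/R, C1ra was higher at 0.32 (0.08 to 0.56), and C1s1 was lower again at -0.30 (-0.58 to -0.04). The C1ra ratio was at the 92.9th percentile of all genes. The C1s1 ratio was at the 34.1st percentile, near the all-gene median of -0.17. TMM scaling raised both ratios by 0.16, which is more than the C1s1 interval lay below 0. The SBP over sham ratio of C1s1, -0.71 (-0.98 to -0.45), was at the 1.71st percentile of all genes. An antisense gene, Gm16567, overlaps C1s1, and how the counting treated strand is not given in the sources used here. The near-identical copies of these genes, C1rb and C1s2, had at most 1 UMI in any section. Reads that the counting could not place between a gene and its copy would be missing from both.

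C3, on which all pathways converge, showed the widest gap between sham and I/R. It was read at 133 CPM (128 to 137) in sham, 73.9 CPM (70.8 to 77.0) in the I/R and 90.3 CPM (86.4 to 94.4) in the SBP section. Its level was highest in sham, with SBP between the other sections and nearer to I/R, and no intervals overlapped. The log2 ratio of I/R over sham was -0.85 (-0.92 to -0.77), a 1.80-fold lower level at the 1.04th percentile of all genes, and under TMM scaling it passed 2-fold at -1.08. SBP was above I/R by 0.29 (0.20 to 0.38) and below sham by -0.56 (-0.64 to -0.47). At equal depth 45.4% of sham spots held a C3 UMI (43.3 to 47.6), against 31.8% of I/R spots (29.7 to 33.9) and 34.6% of SBP spots (32.4 to 36.9). Averaged over all possible draws these shares were 44.4%, 32.8% and 34.2%. The I/R and SBP intervals overlapped.

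C4b, the thioester component of the classical pathway, followed C3 at a lower level, with 442 UMIs in sham (17.6 CPM), 347 in the I/R (11.5 CPM) and 285 in the SBP section (13.2 CPM). The log2 ratio of I/R over sham was -0.62 (-0.82 to -0.41), and SBP was lower than sham by -0.42 (-0.64 to -0.20). The SBP over I/R ratio of 0.20 (-0.03 to 0.43) did not differ from 0 beyond counting error. C4a, a close copy of C4b, had 2, 7 and 1 UMIs, and reads that the counting could not place between the copies would be missing from both. C2, which pairs with C4 in the C3-cleaving enzyme, had 12, 18 and 12 UMIs.

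Cfb, the factor B gene of the alternative pathway, was sparse, with 61 UMIs in sham (2.43 CPM), 108 in the I/R (3.57 CPM) and 47 in the SBP section (2.17 CPM). The log2 ratio was 0.56 (0.09 to 1.03) for I/R over sham and -0.72 (-1.24 to -0.21) for SBP over I/R. A protein-coding read-through gene, Gm20547, overlaps Cfb on its strand. In the I/R section 175 spots held a UMI of the hepatocyte marker list (Alb, Apoa1, Apoa2, Ttr and Fgb), and a single spot held 516 of the list's 861 UMIs together with 4 Cfb, 4 C4b and 10 C3 UMIs. The list summed to 88 UMIs in sham and 262 in SBP. In spots without any of these UMIs the Cfb ratio of I/R over sham was 0.28, which is near the all-gene median, and that of C3 was -0.85.

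Serping1, the inhibitor of C1r and C1s, had the smallest ratios of the members that were not C1q. It was read at 64.4 CPM (61.3 to 67.6) in sham, 69.1 CPM (66.2 to 72.2) in the I/R and 71.2 CPM (67.6 to 74.8) in the SBP section. Neighbouring sections in that order overlapped in their intervals. The log2 ratio of I/R over sham was 0.10 (0.01 to 0.20) and turned to -0.13 under TMM scaling, SBP over I/R was 0.04 (-0.05 to 0.14), and SBP over sham was 0.14 (0.04 to 0.25). TMM scaling lowered the SBP over sham ratio by 0.08, which is more than its interval lay above 0. At equal depth 28.9% of sham spots held a Serping1 UMI (26.95 to 30.9), against 33.5% of I/R spots (31.3 to 35.6) and 29.9% of SBP spots (27.7 to 32.1). The SBP interval overlapped both others. Averaged over all possible draws these shares were 28.9%, 32.85% and 31.8%.

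The spots were then grouped by markers that hold no complement gene. A spot was called macrophage-rich when at least 4 of its 6500 UMIs came from 12 macrophage genes (at most 10% of sham spots did so). Macrophage-rich spots made up 5.52% of sham spots, 12.7% of I/R spots and 6.18% of SBP spots. Summed C1q in them was 1057 CPM in sham, 1154 CPM in the I/R and 931 CPM in the SBP section, against 303, 292 and 276 CPM in the other spots. The log2 ratio of C1q between macrophage-rich spots and the rest was thus 1.80 (1.72 to 1.88), 1.98 (1.93 to 2.04) and 1.75 (1.66 to 1.84). Between sections, the level within macrophage-rich spots differed by 0.13 (0.04 to 0.21) for I/R over sham, and in the other spots by -0.06 (-0.10 to -0.01). Both are ratios of CPM. TMM scaling lowers each by 0.24, which turns the first below 0. These spots held 18.1% of the C1q UMIs in sham, 34.7% in the I/R and 19.0% in the SBP section. With this list, high levels in such spots were not particular to C1q. In sham, C3 stood at a log2 ratio of 1.09 (0.93 to 1.24) in them over the other spots, C4b at 1.79 (1.41 to 2.14) and Cfb at 1.98 (0.93 to 2.92). In I/R, C3 stood at 0.25 (0.07 to 0.43) and Serping1 at -0.21 (-0.43 to -0.01). The C3 values depend on the list. With Adgre1 and Ms4a7 alone, C3 in sham and I/R stood close to its level in the other spots.

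C1q did not keep pace with the whole macrophage list. Over the sections there were 2.05 C1q UMIs for each macrophage marker UMI in sham, 1.67 in the I/R and 1.96 in the SBP section, a log2 ratio of -0.30 (-0.34 to -0.26) for I/R over sham. The list summed to 170 CPM in sham, 248 CPM in the I/R and 166 CPM in the SBP section. In it 7 of 12 genes were higher in I/R, of which Mrc1 (40.7 and 44.7 CPM) by less than the scaling offset. Most of all genes tested were higher in I/R too, with a median log2 ratio of 0.24 and a lower quartile of -0.05. The count of 7 is thus not particular to this list. Among the higher genes of the list, Cd68 went from 18.2 CPM in sham to 49.1 CPM in I/R and Fcgr1 from 4.70 to 15.8 CPM. The resident macrophage genes Cd163 (7.25 CPM in sham and 4.96 CPM in I/R), Folr2 (18.2 and 14.6 CPM) and Lyve1 (11.3 and 9.06 CPM) were lower in I/R. Timd4, another of them, had 47 UMIs in sham and 36 in I/R, and its interval included 0. Monocyte markers summed to 39.8, 153 and 77.3 CPM and neutrophil markers to 32.8, 267 and 128 CPM in sham, I/R and SBP. The part of these shifts in the C1q values was not tested.

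**Figure D3:**
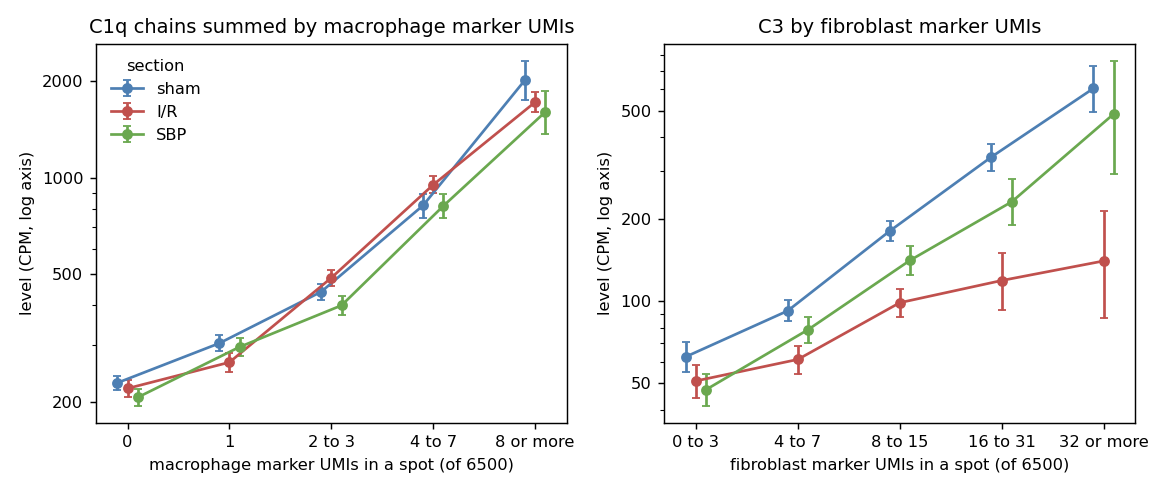
Level (CPM, log axis) of summed C1q by the number of macrophage marker UMIs in a spot, left, and of C3 by the number of fibroblast marker UMIs, right, at 6500 UMIs a spot; points are bins of spots in each section and bars are 95% Poisson intervals. C1q climbs in all sections, from 207 to 229 CPM at 0 markers up to between 1606 and 2019 CPM at 8 or more, whereas C3 at 32 or more fibroblast UMIs is 604 CPM in sham and 140 CPM in I/R.

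C1q rose with the number of macrophage UMIs in each section, and in CPM no section was highest at every number. TMM scaling lowers I/R over sham log2 ratios by 0.24. At 2 to 3 and 4 to 7 UMIs, I/R lay above sham by less than this. With the TMM shifts of both injured sections, sham would stand highest at every number. Spots with 0 macrophage UMIs had 229 CPM of C1q in sham (218 to 241), 220 in the I/R (207 to 234) and 207 in the SBP section (195 to 219). At 1 UMI the I/R level of 266 CPM (248 to 284) lay below sham at 305 CPM (287.5 to 322.5). At 2 to 3 UMIs SBP at 399.9 CPM (372 to 429) lay below I/R at 488 CPM (461 to 516), with sham at 441 CPM (416 to 467). At 4 to 7 UMIs I/R at 952 CPM (894.5 to 1011) lay above both sham at 820 CPM (751.9 to 892.7) and SBP at 818 CPM (746.8 to 893.5), with intervals that barely cleared one another. Spots with 8 or more had 2019 CPM (1755 to 2312) in sham, 1723 CPM (1605 to 1847) in the I/R and 1606 CPM (1371 to 1869) in the SBP section, from 16, 71 and 16 spots. The number of such spots thus differed more between sections than the C1q level within them.

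C3 and the other members that were not C1q were higher in fibroblast-rich than in other spots of each section, apart from Cfb in SBP. C1q was higher there too, by log2 ratios of 0.995 (0.92 to 1.07) in sham, 0.55 (0.47 to 0.63) in the I/R and 0.83 (0.72 to 0.94) in the SBP section. Fibroblast-rich spots were defined by at least 15 UMIs of 8 fibroblast genes. These were 9.32% of sham spots, 7.45% of I/R spots and 5.32% of SBP spots. C3 in them was 380 CPM in sham, 156 CPM in the I/R and 263 CPM in the SBP section, against 103, 66.8 and 79.4 CPM in the other spots. The gap of C3 between I/R and sham was a log2 ratio of -1.29 (-1.46 to -1.12) in fibroblast-rich spots and -0.62 (-0.71 to -0.53) elsewhere. SBP over I/R was 0.76 (0.54 to 0.98) in fibroblast-rich spots and 0.25 (0.15 to 0.35) elsewhere. In both comparisons the intervals inside and outside these spots did not overlap. With the full macrophage list, a wider gap was not particular to fibroblast-rich spots. In macrophage-rich spots by that list C3 stood at -1.63 (-1.86 to -1.41) for I/R over sham, against -0.79 (-0.88 to -0.71) elsewhere, and at 0.79 (0.52 to 1.05) for SBP over I/R. The wider I/R over sham gap in macrophage-rich spots depends on the list. With Adgre1 and Ms4a7 alone, C3 in such spots of both sections stood close to its level in the other spots. In the spots with 32 or more fibroblast UMIs, C3 was 604 CPM (497 to 729) in sham from 28 spots, 140 CPM (87.0 to 215) in I/R from 23 spots and 487 CPM (293 to 761) in SBP from 6 spots. The sham and SBP intervals overlapped there, and both lay above that of I/R.

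The other members that were not C1q did not all share this pattern. C4b in fibroblast-rich spots was 54.9 CPM in sham, 29.1 CPM in the I/R and 34.7 CPM in the SBP section, and the I/R over sham log2 ratio was -0.92 (-1.35 to -0.50) there and -0.39 (-0.63 to -0.14) elsewhere, with overlapping intervals. C1ra was 41.1, 19.4 and 36.3 CPM in these spots, with a ratio of -1.08 (-1.61 to -0.58) for I/R over sham and 0.90 (0.29 to 1.52) for SBP over I/R. C1s1 was 36.0, 26.5 and 20.1 CPM, and its ratios of -0.44 (-0.92 to 0.03) for I/R over sham and -0.40 (-1.12 to 0.28) for SBP over I/R did not differ from 0 beyond counting error. Serping1 was 158, 153 and 223 CPM, so that sham and I/R overlapped with a ratio of -0.05 (-0.26 to 0.15), while SBP was above I/R by 0.55 (0.32 to 0.78). In the other spots the Serping1 ratio of SBP over I/R was -0.03 (-0.14 to 0.08). Cfb had 28 UMIs in the fibroblast-rich spots of sham, 29 in those of I/R and 2 in those of SBP. Fibroblast markers summed over the whole section came to 1137 CPM in sham, 1068 CPM in the I/R and 867 CPM in the SBP section, and their members diverged. Fbln1 was 107, 56.4 and 85.2 CPM, Dcn 283, 221 and 239 CPM, and Pdgfra 14.7, 33.8 and 23.8 CPM. Per fibroblast marker UMI, the C3 ratio of I/R over sham was -0.76 on the log2 scale (-0.83 to -0.68), and that of SBP over sham was -0.16 (-0.25 to -0.08).

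**Figure D4:**
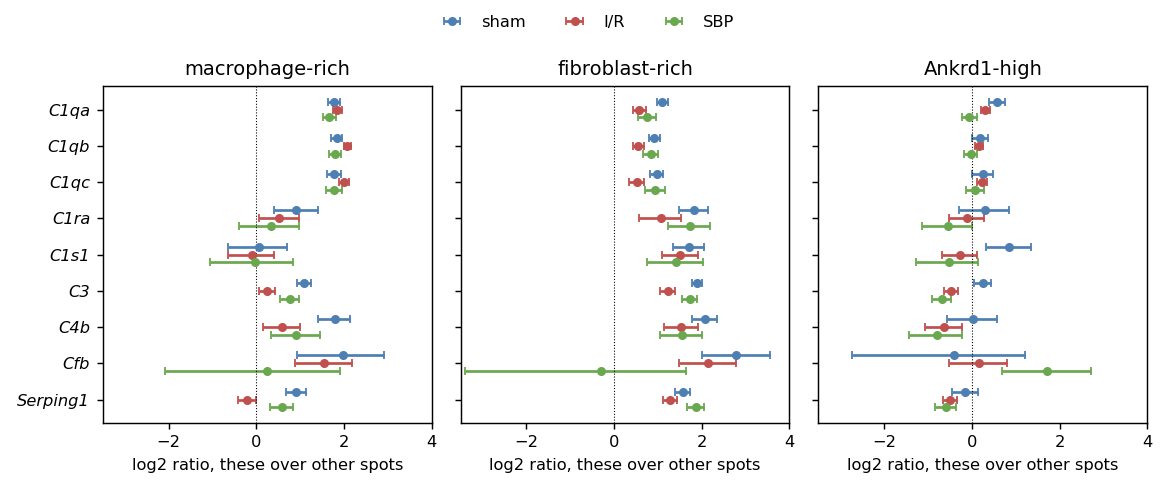
Log2 ratio of each gene in macrophage-rich, fibroblast-rich and Ankrd1-high spots over the other spots of the same section, with 95% counting intervals, for the sham, I/R and SBP sections. In macrophage-rich spots the C1q chains stand from 1.67 (C1qa in SBP) to 2.08 (C1qb in I/R). In fibroblast-rich spots C3 stands at 1.89 in sham and 1.22 in I/R.

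Ankrd1, a stretch-induced cardiomyocyte gene, was the marker by which the study separated infarct from other areas, and a spot with at least 19 Ankrd1 UMIs was called Ankrd1-high (at most 5% of sham spots did so). Such spots were 4.33% of sham, 21.6% of I/R and 14.7% of SBP spots. In sham, C1q stood at a log2 ratio of 0.34 (0.23 to 0.45) in them over other spots and C3 at 0.25 (0.05 to 0.43). In I/R, C3 was 57.1 CPM in Ankrd1-high and 79.6 CPM in other spots, a log2 ratio of -0.48 (-0.64 to -0.33), C4b had a ratio of -0.64 (-1.07 to -0.24) and Serping1 of -0.50 (-0.66 to -0.34). C1q went the other way, at 442 against 378 CPM and a ratio of 0.23 (0.17 to 0.28). In SBP, C3 had a ratio of -0.69 (-0.91 to -0.48), which was -0.22 with a lower threshold of 14 UMIs. C4b had -0.80 (-1.43 to -0.23) and Serping1 -0.60 (-0.84 to -0.36). The C1q ratio in SBP was -0.02 (-0.11 to 0.08), and it was 0.27 with the lower threshold, so that it depends on where the line was drawn. Cfb was the member whose interval lay above 0 in the Ankrd1-high spots of SBP, at 1.72 (0.68 to 2.71), with 15 UMIs there (4.55 CPM) and 24 elsewhere (1.38 CPM). C3 was lower in I/R than in sham both inside the Ankrd1-high spots, by -1.46 (-1.68 to -1.22), and outside them, by -0.73 (-0.82 to -0.64).

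Over spots of equal depth the C1q chains had higher correlations with one another than with the other members. The highest r of a chain with another member was 0.14 in sham, 0.10 in the I/R and 0.10 in the SBP section. Pearson's r of log2(UMIs + 1) between pairs of chains had a median of 0.24 in sham (0.23 to 0.28 over 3 pairs), 0.44 in the I/R (0.39 to 0.44) and 0.27 in the SBP section (0.24 to 0.30). The points share a library, a depth of 6500 UMIs and their neighbourhood in the tissue, and r is given as a description. Among spots with 0 macrophage marker UMIs the median r was 0.09 in sham, 0.22 in the I/R and 0.13 in the SBP section. Chains against the other 6 members had a median of 0.09 in sham, 0.02 in the I/R and 0.05 in the SBP section over 18 pairs. C1q summed against C3 had an r of 0.16, 0.03 and 0.11, and against Serping1 of 0.16, 0.00 and 0.07. The other members among themselves had medians of 0.10, 0.06 and 0.06 over 15 pairs, and C3 with Serping1, 0.20 in sham, 0.06 in the I/R and 0.19 in the SBP section, was the highest of these pairs in sham and in SBP. Apart from C1qb in I/R, each member had a mean below 1 UMI a spot at this depth in every section, which limits every r given here.

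**Figure D5:**
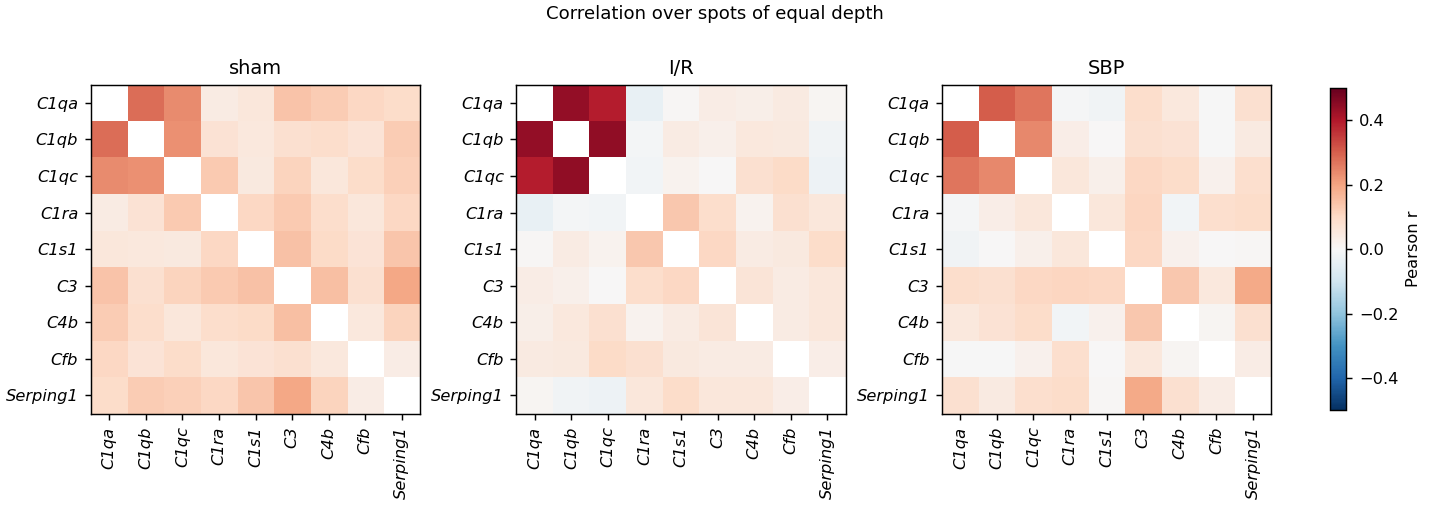
Pearson's r of log2(UMIs + 1) between each pair of the 9 genes over spots thinned to 6500 UMIs, in the sham (2102 spots), I/R (1880) and SBP (1747) sections; red is positive, blue is negative and the diagonal is left blank. The block of C1q chains is darkest in I/R, with r from 0.39 to 0.44, and most pairs outside it are near 0.

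The genes whose spot pattern in I/R was most like C1q, among 4613 genes with at least 500 UMIs there, were Lyz2 (r = 0.58 in I/R, 0.39 in sham and 0.41 in SBP), Actb (0.54, 0.36 and 0.33), Tmsb4x (0.53, 0.34 and 0.30), Ftl1 (0.53, 0.29 and 0.32) and Ctsb (0.51, 0.28 and 0.27). Lyz2 encodes lysozyme of myeloid cells and Ctsb a lysosomal protease. For C3 they included Gsn (r = 0.19 in I/R, 0.28 in sham and 0.27 in SBP), Dcn, Mgp and Col3a1, the last at 0.12. For Serping1 they included Gsn (0.24, 0.27 and 0.29), Dcn, Mgp and Igfbp4. For C4b they were Gsn (0.12), Myh11, Dcn, Mgp and Pbrm1, and Pbrm1 had an r of 0.00 in both other sections. Dcn and Col3a1 encode matrix proteins of fibroblasts. Among the same genes C3 ranked 3275th and Serping1 3634th in likeness to C1q. C1q also followed the neutrophil list at r = 0.21 in sham, 0.41 in the I/R and 0.05 in the SBP section, the monocyte list at 0.23, 0.45 and 0.16, and the mitochondrial share of a spot's UMIs at -0.39, -0.54 and -0.33. The part of these in the C1q pattern was not tested.

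Of 46 other complement genes, all listed in the matrices, 22 had at least 50 UMIs in I/R and sham together. In I/R over sham 5 of them were at least 2-fold higher, as were 8.38% of all genes tested, and none was 2-fold lower, against 0.523% of all genes. All 5 were receptor genes of the cascade's products. C3ar1, the receptor of the C3a fragment, was 13.4 CPM in sham, 36.9 CPM in the I/R and 16.7 CPM in the SBP section, a log2 ratio of 1.47 (1.29 to 1.65) for I/R over sham and -1.15 (-1.32 to -0.97) for SBP over I/R. C5ar1, the receptor of C5a, was 17.4, 48.7 and 28.4 CPM. Itgam and Itgb2, the chains of complement receptor 3, were 8.32, 23.6 and 11.6 CPM and 11.8, 32.9 and 17.4 CPM. Itgax was 1.63, 5.79 and 2.40 CPM. In SBP over I/R the interval lay below 0 for all 7 receptor genes tested, as it did for 39% of all genes. The median log2 ratio of all genes there was -0.17. Of the 7, 3 (C3ar1, Itgam and Itgax) were at least 2-fold lower, as were 4.53% of all genes tested. Under TMM scaling Itgax alone of these stayed past 2-fold, with C3ar1 at -0.98 and Itgam at -0.87. C1qbp, a protein first described as a C1q receptor and counted among the 7, differed little at 82.7, 94.4 and 78.9 CPM. Its SBP over I/R ratio of -0.26 became -0.10 under TMM scaling. These receptors are also general genes of monocytes and neutrophils, whose markers moved the same way, and their part was not tested.

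The regulators split. Clu (clusterin), an inhibitor of the membrane attack complex, was 759 CPM in sham, 1081 CPM in the I/R and 728 CPM in the SBP section, and Cfp (properdin), which stabilises the alternative pathway enzyme and is made by myeloid cells, was 26.4, 47.4 and 25.8 CPM. Vtn (vitronectin), another inhibitor of the terminal pathway, was lower in I/R than in both other sections, at 36.3, 23.1 and 37.4 CPM. Cd59a, the membrane inhibitor of the pore, was 66.1, 49.0 and 56.0 CPM, and Cr1l (Crry), the membrane inhibitor of the C3-cleaving enzymes, was 26.5, 33.2 and 28.9 CPM. The I/R over sham log2 ratio of Cr1l, 0.32 (0.18 to 0.47), was near the all-gene median of 0.24. TMM scaling lowered it by 0.24, which is more than its interval lay above 0. Of the terminal components, Hc (C5), C6, C7, C8a, C8b and C9 had at most 6 UMIs in any section, which is too few to compare.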

How the data were processed

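UMI counts per gene and spot were deposited by the authors as 1 matrix a section. The submitters' processing notes name Space Ranger 1.3.0 and mm10, whereas the paper gives another version and a human reference. The genes of the matrices carry mouse identifiers, so the reference was a mouse one. The version and other alignment settings remain uncertain. Spots with at least 200 detected genes were kept. Counts were summed per section and divided by all UMIs (CPM), with Poisson 95% intervals for levels, Clopper-Pearson intervals for shares and conditional binomial intervals for log2 ratios. For shares and correlations spots were thinned without replacement to 6500 UMIs, the 10th percentile rounded down to a multiple of 500. Ratios were set beside every gene that reached 50 UMIs over both sections. With 1 section a condition no test was made. PCR and spot-to-spot spread are not in the intervals. The members, marker lists and motifs were chosen with earlier results of these data known. Other complement genes were named at 500 UMIs in 1 section or a 2-fold difference with 50 UMIs, and the 5 most correlated genes in I/R were named for C1q, C3, C4b and Serping1; genes outside these rules (C1rb, C1s2, C2, C4a, the terminal components and marker genes) were chosen after their values were seen. Scripts ran in Python 3.11.15 (scipy 1.17.1, numpy 2.4.6, matplotlib 3.10.9, pandas 2.3.3) and were tested on simulated data. Alternatives were other scalings, spot filters, weights, thinning depths, draws and spot thresholds. One gene that met the rule for named genes is not reported here.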

Additional observations from a re-analysis of the deposited data

How the results depend on the processing

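No paired analysis was possible because a single section stands for each condition. Scaling reversed some ratios. For I/R over sham the median log2 ratio of the 9 members, 0.10, became -0.013 without mitochondrial genes, -0.13 with TMM factors and -0.13 with median-of-ratios size factors. Serping1 became -0.013, -0.13 and -0.13 under the same 3 settings, C1qa -0.052 and -0.053 with the last pair of settings, and C1qc -0.048 and -0.049. For SBP over I/R the median of -0.28 became -0.11 with TMM factors, -0.11 with size factors and -0.15 when every spot weighed the same. Equal weight for each spot moved 10 of 30 ratios, among them C1qb in I/R over sham from 0.33 to 0.60. The receptor genes at least 2-fold lower in SBP over I/R went from 3 to 2 without mitochondrial genes and to 1 with TMM or size factors, settings chosen after seeing the data. The filters on spots and leaving out the 1% of spots with most UMIs of a gene kept all 30 ratios within their intervals, as did leaving out spots with a hepatocyte marker UMI, an alternative chosen after seeing the data. A second random draw kept 28 of 30 shares within their intervals; C3 in sham went from 45.4% to 42.0%. Shares at 1000 UMIs and without thinning all differed, since depth sets them. Spearman's rho stayed inside the range of all 18 correlations of C1q with another member. Other settings moved some of them: 4 of 18 without thinning, 2 of 18 with a second draw and 1 of 17 without the 1% of spots with most UMIs of the other member. With only Adgre1 and Ms4a7 as macrophage markers, C1q in macrophage-rich spots stood at log2 ratios of 1.72, 1.85 and 1.56 in sham, I/R and SBP, but C3 stood at 0.07, 0.03 and 0.54; Cfb could not be given in 1 section, where no such spot held it, and its correlation with C1q could not be given in 1 section without the top 1% of spots. With the threshold lowered to 2 UMIs (25% of sham spots at most), C1q stood at 1.18, 1.61 and 1.18. Depth limits C1ra, C1s1, C4b and above all Cfb, which had 47 to 108 UMIs a section.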

Other observations

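Cfd encodes factor D (adipsin), the alternative pathway protease that cleaves factor B and is made mainly by adipocytes. It had 98 UMIs in the SBP section (4.53 CPM) and 0 in both others. Against a floor of 3 counts per section, SBP was at least 45.7-fold higher than I/R and at least 37.9-fold higher than sham, a bound that takes the 98 UMIs as exact. With their counting error the lower limits of the log2 ratio were 5.19 and 4.92, which are smaller. The 98 UMIs lay in 21 spots, and a single spot held 66 of them. The adipocyte markers Adipoq, Plin1, Cidec, Adrb3 and Retn summed to 1, 7 and 27 UMIs in sham, I/R and SBP, Adrb3 was at 0 in every section, and Adipoq and Cidec were read only in SBP, with 8 and 9 UMIs. Of the 21 spots with Cfd, 1 was among the 8 SBP spots that held an adipocyte marker UMI.

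The acute phase genes, a list that holds no complement gene, did not follow the order of C3 over the sections, although over spots C3 had an r with the list of 0.24 in sham, 0.11 in the I/R and 0.22 in the SBP section. The list summed to 151 CPM in sham, 204 CPM in the I/R and 239 CPM in the SBP section. Lcn2 was 73.9, 84.4 and 123 CPM and Serpina3n 38.9, 41.2 and 56.1 CPM, each highest in SBP, whereas Il1b was 2.39, 13.5 and 6.20 CPM and Socs3 3.94, 13.2 and 7.21 CPM, each highest in I/R.

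The pattern recognition genes of the lectin pathway, which activates C4 without C1q, were mixed. Colec11 was 17 CPM in sham, 11.1 CPM in the I/R and 14.8 CPM in the SBP section, the order that C3 and C4b had. Colec12, listed with it, did not have that order, at 11.1, 11.8 and 9.85 CPM, and its I/R over sham interval included 0. Masp1, the protease of Colec11, was 5.89, 8.66 and 9.52 CPM. Fcna, a ficolin of macrophages, was 3.78, 2.68 and 2.50 CPM. Mbl1, Mbl2, Masp2 and Fcnb had at most 4 UMIs in any section. Colec11, Colec12, Masp1 and Fcna were named after their values were seen.

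C1q by neutrophil content differed between the injured sections. A spot with at least 1 neutrophil marker UMI at equal depth had 598 CPM of C1q in I/R and 279 CPM without one, a log2 ratio of 1.10 (1.05 to 1.15). In SBP the levels were 363 and 308 CPM and the ratio 0.24 (0.15 to 0.32), and in sham 651 and 317 CPM and 1.04 (0.96 to 1.12). These spots were 8.99% of sham, 36.9% of I/R and 19.1% of SBP spots, and the grouping was chosen after seeing the data.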
